A study of Mus musculus with 8 samples.

Results

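The genes described here are the keratins and a set of other genes that mark the ectoderm, the sheet of epithelium that covers the limb bud. They were taken from the deposited gene table by name. All genes whose symbol is Krt followed by a number, with or without a letter after it, were included (34 keratins), together with 15 further genes: the regulators Trp63, Grhl2, Grhl3, Tfap2a, Tfap2c and Esrp1, the adhesion genes Epcam, Cdh1, Perp, Dsp, Dsg2 and Dsc3, and the differentiation genes Lor, Ivl and Sfn. This gave 49 genes of the 21692 in the table. Of these 49, 31 had enough reads to be tested (17 keratins and 14 others), against 15517 genes tested in all.

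RNA was sequenced from forelimb buds of CD1 mouse embryos taken at gestation day 13 and kept in culture for 24 h. The vehicle group received DMSO, and the other group received a mixture of organophosphate esters (OPE, chemicals used as flame retardants and plasticisers) composed after Canadian house dust, diluted 1 in 300000. Each group had 4 libraries, called vehicle 1 to 4 and OPE 1 to 4 below; whether they came from separate litters or cultures is not stated, so p-values measure the spread between these libraries, which may be partly technical. A whole limb bud is mostly mesenchyme and cartilage, and in RNA from whole buds fewer cells of a type and less RNA per cell cannot be told apart.

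Keratins are the intermediate filament proteins of epithelial cells, and each filament is built from a type I and a type II keratin. The basal layer of the epidermis makes Krt5 (type II) and Krt14 (type I), and the suprabasal layers make Krt1 (type II) and Krt10 (type I) as the sheet stratifies. Simple epithelia and the early surface ectoderm make Krt8 (type II) and Krt18 (type I). The transcription factor Trp63 is needed for the ectoderm to become a stratified epithelium, and limb outgrowth depends on a ridge of ectoderm at the bud margin, the apical ectodermal ridge, which secretes fibroblast growth factors.

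Totals of counted reads ranged from 14986793 to 22006738 per library, and the 49 genes took between 0.0291% and 0.0741% of them. OPE 2 and OPE 4 had near-equal totals (15063166 and 14986793 reads) and held the highest and the lowest of these shares. In a principal component analysis of log2 CPM (CPM are counts scaled to library size), OPE 3 stood apart on the first component and OPE 1 on the second. In OPE 3, 9.04% of reads fell on ribosomal protein genes, against 4.54% to 5.82% in the other 7 libraries. The part of these library differences in the values below was not tested.

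The 31 tested genes had reads in every library. On the FPKM scale, which divides by gene length and so allows levels of different genes to be compared, the highest vehicle levels among the 49 genes were 56.2 ± 6.46 for Krt14 and 50.7 ± 7.94 for Krt5 (SD, n = 4), which lay within each other's spread. Krt17 followed at 19.9 ± 4.26, Sfn at 17.7 ± 1.93 and Perp at 17.3 ± 2.58 FPKM. The vehicle levels of Krt1 (12.6 ± 4.21), Krt15 (11.7 ± 1.89), Epcam (10.5 ± 1.48), Krt10 (9.70 ± 2.65) and Krt18 (8.69 ± 0.780 FPKM) came next, and neighbours in this order differed by less than the larger of their SDs. The vehicle libraries thus held transcripts of the basal and the suprabasal keratin pairs. In the OPE group the mean FPKM level was 68.0 ± 20.5 for Krt14, 26.9 ± 20.2 for Krt5 and 24.1 ± 9.41 for Krt17, so that the mean of Krt14 was the highest there.

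No keratin or other ectoderm gene passed the test. By edgeR's quasi-likelihood test with Benjamini-Hochberg adjustment over all 15517 genes, 0 of the 31 had an adjusted p under 0.05, where 0.477% of all genes did (74 genes; 68 lower in OPE, 0.438%, and 6 higher, 0.0387%). The lowest adjusted p among the 31 was 0.200, for Krt16. At an unadjusted p under 0.05 there were 3 (Krt16, Krt1 and Krt77, all with lower means in OPE), against 13.2% of all genes. DESeq2 called 0 of 33 genes of the set that it tested, against 3.11% of all genes, with 2 at an unadjusted p under 0.05 (13.8% of all genes). In the authors' deposited table, none of the 37 genes of the set with an adjusted p were under 0.05, against 2.68% of all genes with one, and the lowest was 0.0852, for Krt16. The fitted log2 fold change was below 0 for 24 of the 31 genes and above 0 for 7, where 47.2% of all genes were below 0. Its median was -0.42 over the 31 genes and 0.01 over all genes tested. These counts describe genes that share cells and libraries and are not independent of one another.

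The OPE libraries differed among themselves more than the vehicle libraries did. The CPM values of the 31 genes summed to 601, 599.8, 497 and 593 in vehicle 1 to 4 and to 366, 736, 517 and 289 in OPE 1 to 4. The vehicle sums averaged 573 ± 50.8 and the OPE sums 477 ± 197 (SD, n = 4). OPE 2 lay above all 4 vehicle libraries, OPE 3 lay among them, and OPE 1 and OPE 4 lay below all 4. With scaling by library totals, OPE 3 (481) lay below the lowest vehicle library (504) as well. Gene by gene, 25 of the 31 were below the whole vehicle range in OPE 4 (25.8% of all genes were) and 1 was above it, Krt83. In OPE 1, 19 were below (30.9% of all genes) and 2 above, Krt14 and Krt17. In OPE 2, 16 were above the vehicle range (25.4% of all genes) and 2 below, Krt16 and Lor. OPE 3 had 11 below and 6 above, against 35.9% and 37.4% of all genes. The median difference from the vehicle mean, on the log2 CPM scale, was -0.51 in OPE 1, 0.29 in OPE 2, -0.30 in OPE 3 and -0.80 in OPE 4, and lay between -0.21 and 0.11 in the vehicle libraries. Within the OPE group, OPE 4 was the lowest library for 20 of the 31 genes and OPE 2 the highest for 24.

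**Figure D1:**
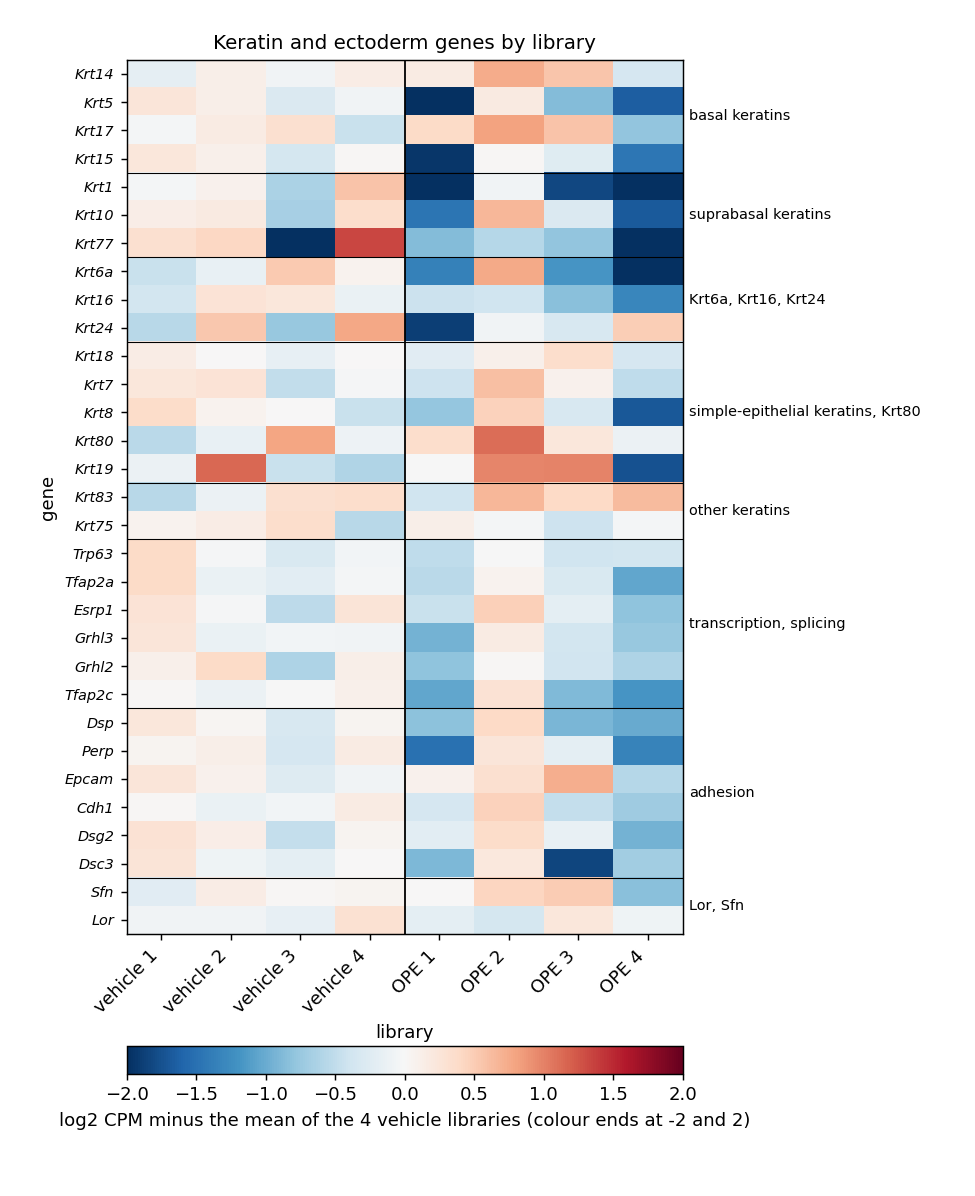
Colour gives log2 CPM minus the mean of the 4 vehicle libraries for each of the 31 tested genes (vertical axis, grouped by role) in each library (horizontal axis); colours end at -2 and 2. The OPE 4 and OPE 1 columns are mostly blue (25 and 19 genes below the vehicle range), the OPE 2 column is mostly red (16 genes above it), and Krt14 and Krt17 are red or pale in OPE 1 and OPE 3.

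The basal keratins did not lie on the same side of the vehicle values. Krt14 (chr11:100203162-100207548 on the minus strand, mm10), the type I keratin of the basal layer, measured 82.0, 101, 88.5 and 103 CPM in vehicle 1 to 4 and 105, 156, 137 and 74.0 CPM in OPE 1 to 4. OPE 2 and OPE 3 were above all vehicle libraries, OPE 1 was just above the highest of them, and OPE 4 was below the lowest. The log2 fold change of Krt14 was 0.33 ± 0.19 (SE; 95% interval -0.09 to 0.76, adjusted p = 0.511 by edgeR). Its type II partner Krt5 (chr15:101707070-101712891, minus strand) measured 128, 118, 88.0 and 103 CPM in vehicle 1 to 4 and 24.0, 122, 59.2 and 34.4 CPM in OPE 1 to 4. The highest OPE library, OPE 2, was within the vehicle range, and the other 3 were below it. The log2 fold change of Krt5 was -0.87 ± 0.40 (95% interval -1.74 to 0.00, adjusted p = 0.381 by edgeR). Krt15 (chr11:100131758-100135928, minus strand), a type I keratin of basal and hair-follicle stem cells, measured 22.8, 20.8, 15.3 and 19.7 CPM in vehicle 1 to 4 and 4.94, 19.7, 16.4 and 7.06 CPM in OPE 1 to 4. OPE 1 and OPE 4 were below the vehicle range, and OPE 2 and OPE 3 were inside it; the log2 fold change was -0.72 ± 0.36 (adjusted p = 0.426 by edgeR). Krt17 (chr11:100256217-100261029, minus strand), a type I keratin of embryonic ectoderm, skin appendages and wounded epidermis, measured 29.2, 33.3, 37.2 and 21.9 CPM in vehicle 1 to 4 and 38.9, 52.0, 44.3 and 17.3 CPM in OPE 1 to 4. OPE 1, 2 and 3 were above the vehicle range and OPE 4 was below it, with a log2 fold change of 0.33 ± 0.28 (adjusted p = 0.691 by edgeR). None of these 4 genes passed the test, and the groups overlapped for each.

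The suprabasal keratins included the largest negative differences. Krt1 (chr15:101845428-101850786, minus strand), the type II keratin that appears when keratinocytes leave the basal layer, measured 28.3, 30.8, 18.6 and 42.9 CPM in vehicle 1 to 4 and 2.95, 27.5, 8.12 and 2.80 CPM in OPE 1 to 4. OPE 1, 3 and 4 were below every vehicle library and OPE 2 was among them. The mean was 30.2 ± 9.97 CPM in vehicle and 10.3 ± 11.7 CPM in OPE (SD, n = 4), the log2 fold change -1.56 ± 0.60 (95% interval -2.88 to -0.24) and the adjusted p 0.292 by edgeR. Its type I partner Krt10 (chr11:99385254-99389364, minus strand) measured 21.1, 21.98, 12.2 and 24.5 CPM in vehicle 1 to 4 and 6.97, 30.5, 15.7 and 5.93 CPM in OPE 1 to 4. Here OPE 2 was above the vehicle range, OPE 3 inside it and OPE 1 and 4 below it, and the log2 fold change was -0.44 ± 0.44 (adjusted p = 0.747 by edgeR). Krt77, a type II keratin of suprabasal cells and sweat ducts, had few reads. It measured 2.65, 2.86, 0.421 and 5.50 CPM in vehicle 1 to 4 and 1.11, 1.39, 1.18 and 0.0666 CPM in OPE 1 to 4, a range in vehicle that spanned most OPE values, with a log2 fold change of -1.60 ± 0.69 (adjusted p = 0.351 by edgeR). The 3 suprabasal keratins had a median log2 fold change of -1.56, set by Krt1.

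**Figure D2:**
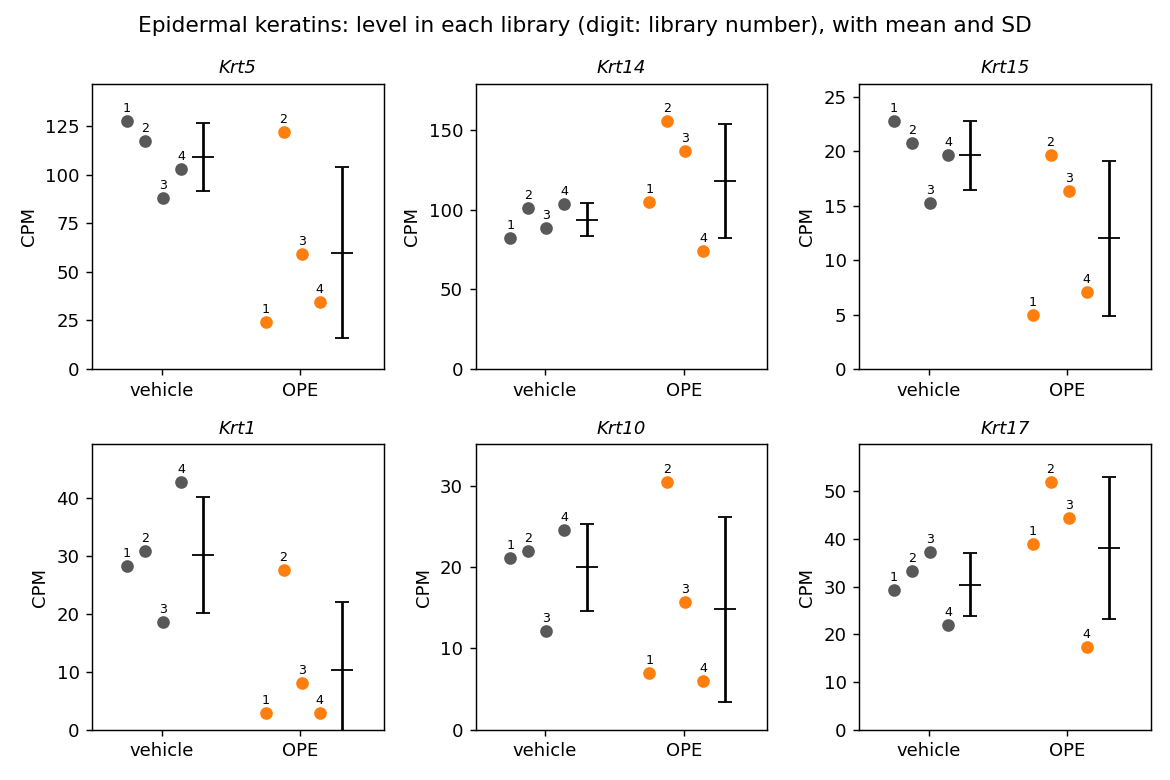
Points are the CPM values of 6 epidermal keratins in the 4 vehicle and 4 OPE libraries (horizontal axis, digit giving the library number), with the group mean and SD beside them; the lower end of the Krt1 OPE bar falls below the axis. For Krt5 and Krt1, OPE 1, 3 and 4 sit below all vehicle points and OPE 2 sits among them, while Krt14 and Krt17 have OPE 1, 2 and 3 above all vehicle points.

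Because the summed CPM varied between the OPE libraries, keratins were also compared with each other inside each library. The ratio of Krt5 to Krt14 on the FPKM scale was 1.21, 0.900, 0.771 and 0.774 in vehicle 1 to 4 and 0.178, 0.607, 0.335 and 0.361 in OPE 1 to 4. The groups did not overlap (0.913 ± 0.205 in vehicle, 0.370 ± 0.178 in OPE, SD, n = 4), and OPE 2, whose Krt5 level was like that of the vehicle libraries, was also below them in this ratio. The ratio of Krt1 to Krt10 was 1.147, 1.20, 1.31 and 1.496 in vehicle 1 to 4 and 0.363, 0.773, 0.441 and 0.404 in OPE 1 to 4, again without overlap (1.29 ± 0.154 and 0.495 ± 0.188). Krt15 to Krt14 did not overlap either, at 0.211 ± 0.0462 in vehicle and 0.0969 ± 0.0358 in OPE. The ratio of Krt5 to Krt15 overlapped, at 4.32 ± 0.174 and 3.80 ± 0.821. Krt8 to Krt18 (0.230 ± 0.0460 and 0.167 ± 0.0888) and Krt6a to Krt16 (1.35 ± 0.290 and 1.37 ± 1.09) overlapped as well. The ratios were chosen after the values had been seen and carry no test. Of all 465 pairs among the 31 genes, 40 had ratios that did not overlap between groups, which is 8.6%. For single genes on the CPM scale, a different measure, 9.49% did not overlap. No such figure was worked out for ratios of genes outside the set. Of the 40 pairs, 11 involved Krt14, 8 involved Krt1 and 6 involved Krt5.

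Measured as a share of the summed CPM of the 31 genes, 3 of the 31 genes had no overlap between groups. By CPM, a different measure, 9.49% of all genes had none. The share of Krt14 was 16.4 ± 1.90% in vehicle and 25.5 ± 3.17% in OPE (SD, n = 4). The share of Krt5 was 19.0 ± 1.798% and 11.6 ± 4.08%, and that of Krt1 was 5.21 ± 1.47% and 1.77 ± 1.35%. Shares of one sum move against each other, so a higher Krt14 share and a lower Krt5 share are not separate observations.

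**Figure D3:**
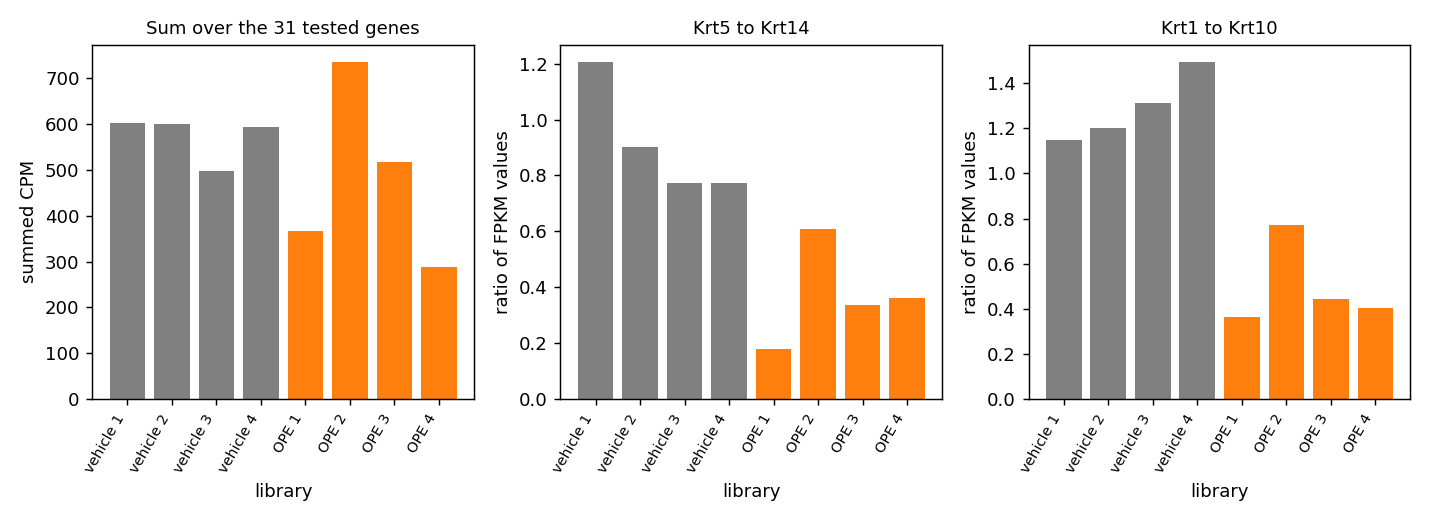
Bars give, for each library (horizontal axis), the summed CPM of the 31 tested genes, the FPKM ratio of Krt5 to Krt14 and the FPKM ratio of Krt1 to Krt10. The sum spreads from 289 to 736 in OPE and overlaps the vehicle range, while both ratios are lower in all 4 OPE libraries than in any vehicle library.

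Reads of some of these keratins can be hard to assign, because their sequences share long identical stretches with each other or with other genes. The longest stretches shared by Krt14 with Krt16 (134 bases, from coding base 306 of Krt14 and 282 of Krt16) and with Krt17 (71 bases, from 1216 and 1105) are shown, since Krt14 and Krt16 had log2 fold changes of opposite sign and Krt14 and Krt17 of the same sign. They come from the GENCODE vM21 transcripts, counted from the start codon, 5′ to 3′.
Krt14 and Krt16: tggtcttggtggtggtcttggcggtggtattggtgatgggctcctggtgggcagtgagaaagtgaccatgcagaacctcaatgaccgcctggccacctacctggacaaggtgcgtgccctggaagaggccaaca
Krt14 and Krt17: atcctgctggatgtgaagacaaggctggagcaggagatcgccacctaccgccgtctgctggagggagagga
Of the distinct 50-base words in each gene's transcripts, 13.9% were shared with another gene for Krt14, 4.00% for Krt17, 8.52% for Krt5, 37.6% for Krt16, 26.9% for Krt8 and 45.7% for Krt6a. For Krt1, Krt10, Cdh1, Dsp, Epcam, Perp and Trp63 the share was 0. The other gene was not always one of the set: all 514 shared words of Krt8 were shared with Krt8-ps. Of the 570 shared words of Krt16, 382 were shared with Gm11597. No source used here says how reads that fit more than 1 gene were counted, so values of Krt6a and Krt16 in particular are uncertain.

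Krt16 was the only one of the 31 genes whose groups did not overlap on the CPM scale, where 5.44% of all genes were lower and 4.05% higher without overlap. Krt16 (chr11:100246091-100248902, minus strand), a type I keratin of appendages and stressed epidermis, measured 4.97, 7.75, 7.49 and 5.86 CPM in vehicle 1 to 4 and 4.75, 4.83, 3.54 and 2.53 CPM in OPE 1 to 4. All 4 OPE libraries were below the lowest vehicle library, OPE 1 and 2 by little; the mean was 6.52 ± 1.33 CPM in vehicle and 3.91 ± 1.10 CPM in OPE (SD, n = 4), with a log2 fold change of -0.73 ± 0.23 (95% interval -1.24 to -0.22, adjusted p = 0.200 by edgeR). Krt6a, its usual type II partner, measured 8.92, 11.01, 17.6 and 12.9 CPM in vehicle 1 to 4 and 4.71, 20.8, 5.34 and 2.80 CPM in OPE 1 to 4. OPE 2 was above the vehicle range and the other 3 below it (log2 fold change -0.59 ± 0.50, adjusted p = 0.689 by edgeR). Krt24 was near the lower limit of the test, with a log2 fold change of -0.51 ± 0.60.

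The keratins of simple epithelia had log2 fold changes on both sides of 0. Krt18 (chr15:102028216-102032026, plus strand) measured 13.3, 12.03, 10.6 and 11.98 CPM in vehicle 1 to 4 and 10.2, 12.8, 15.3 and 9.39 CPM in OPE 1 to 4. Its log2 fold change was -0.01 ± 0.16 with a 95% interval of -0.37 to 0.35 (edgeR), and the OPE libraries lay on both sides of the vehicle values. Krt8, the partner of Krt18, measured 4.52, 3.67, 3.51 and 2.53 CPM in vehicle 1 to 4 and 1.98, 4.83, 2.77 and 0.999 CPM in OPE 1 to 4, with OPE 1 and OPE 4 below the vehicle range and OPE 2 above it (-0.43 ± 0.38). Krt7, found in simple and glandular epithelium, measured 3.61, 3.72, 2.15 and 3.02 CPM in vehicle 1 to 4 and 2.26, 4.70, 3.26 and 2.13 CPM in OPE 1 to 4, and its log2 fold change was -0.02 ± 0.29. Krt19, of periderm and simple epithelium, and Krt80 had log2 fold changes of 0.22 ± 0.59 and 0.39 ± 0.36. The group of 5 had a median of -0.01. Of the remaining tested keratins, Krt75, a companion-layer keratin of the hair follicle, had -0.12 ± 0.29, and the hair keratin Krt83 had 0.33 ± 0.32. Adjusted p-values of these 7 genes by edgeR ranged from 0.707 to 0.991.

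The regulators of ectoderm identity all had log2 fold changes below 0 (6 of 6, median -0.42), and none passed the test. Trp63 (chr16:25683763-25892102, plus strand) measured 26.4, 19.8, 16.3 and 19.6 CPM in vehicle 1 to 4 and 14.2, 20.2, 15.3 and 15.7 CPM in OPE 1 to 4. OPE 1, 3 and 4 were just below the lowest vehicle library and OPE 2 was inside the range; the log2 fold change was -0.33 ± 0.16 (95% interval -0.69 to 0.03, adjusted p = 0.426 by edgeR). Trp63 therefore spread less between OPE libraries (SD 2.65 CPM on a mean of 16.3) than Krt5 or Krt1 did. Tfap2a, a transcription factor of surface ectoderm and neural crest, measured 25.2, 17.7, 16.8 and 18.8 CPM in vehicle 1 to 4 and 13.3, 20.4, 15.7 and 9.39 CPM in OPE 1 to 4. Its relative Tfap2c measured 3.22, 2.91, 3.14 and 3.42 CPM in vehicle 1 to 4 and 1.48, 3.90, 1.66 and 1.33 CPM in OPE 1 to 4. For both genes OPE 1, 3 and 4 were below the vehicle range, and the log2 fold changes were -0.42 ± 0.22 and -0.61 ± 0.32. Grhl3, a grainyhead factor needed for barrier formation, measured 8.24, 6.32, 6.65 and 6.61 CPM in vehicle 1 to 4 and 3.55, 7.74, 5.34 and 4.06 CPM in OPE 1 to 4. Grhl2, its relative that maintains epithelial adhesion genes, measured 4.35, 5.30, 2.58 and 4.39 CPM in vehicle 1 to 4 and 2.26, 4.10, 3.05 and 2.60 CPM in OPE 1 to 4. For Grhl3, OPE 1, 3 and 4 were below the vehicle range, and for Grhl2 OPE 1 was; the log2 fold changes were -0.43 ± 0.23 and -0.47 ± 0.26. The exons of Grhl2 overlap Gm16136 on the opposite strand, which had reads equal to 37.4% of those of Grhl2, and without a stated strand setting the reads of the pair cannot be told apart. Esrp1, which directs epithelial splicing, measured 10.9, 8.92, 6.28 and 10.8 CPM in vehicle 1 to 4 and 6.60, 12.6, 7.91 and 5.13 CPM in OPE 1 to 4 and had a log2 fold change of -0.20 ± 0.27. The adjusted p-values of these genes other than Trp63 ranged from 0.449 to 0.818 by edgeR.

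**Figure D4:**
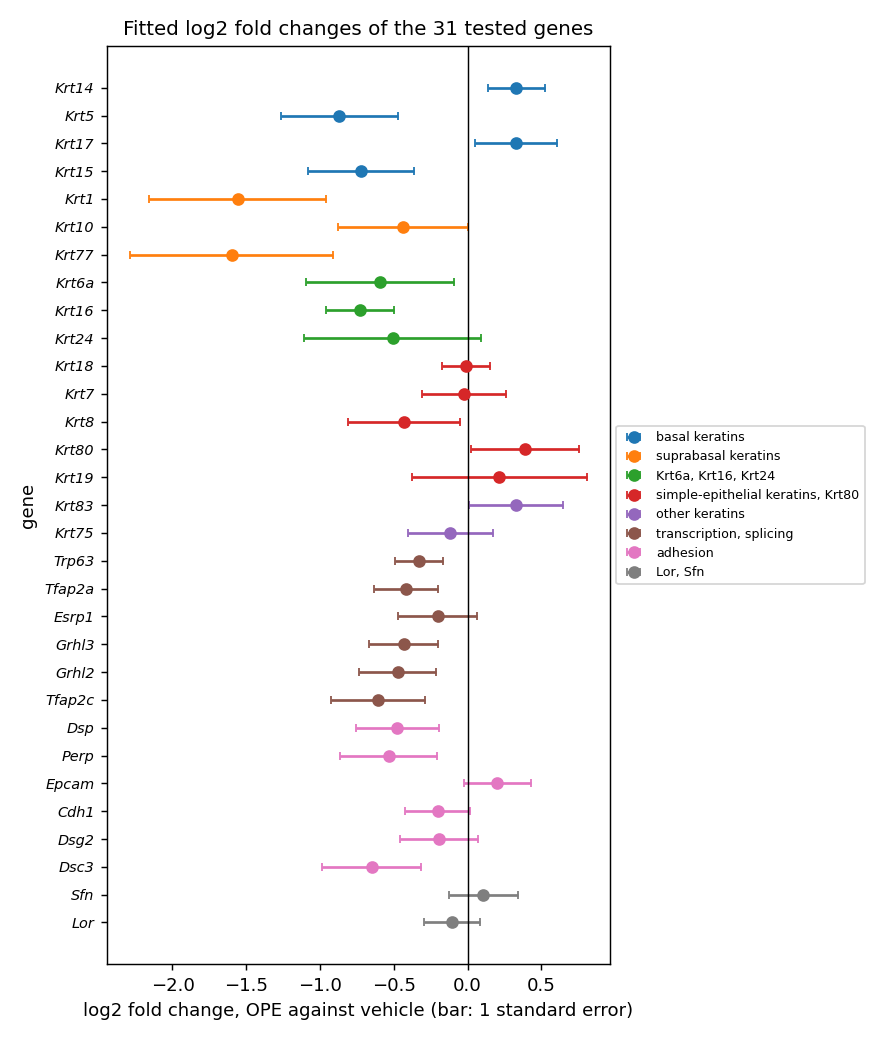
Points are fitted log2 fold changes (OPE against vehicle, horizontal axis) of the 31 tested genes (vertical axis, coloured by role), and bars are 1 standard error. Krt14, Krt17, Epcam, Sfn, Krt19, Krt80 and Krt83 lie above 0 and the other 24 below, with Krt77 (-1.60) and Krt1 (-1.56) farthest from 0; no gene passed the adjusted threshold.

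The adhesion genes had log2 fold changes below 0 in 5 of 6 cases (median -0.34), and none passed the test. Dsp, which ties desmosomes to keratin filaments, measured 54.2, 47.5, 37.2 and 48.1 CPM in vehicle 1 to 4 and 26.1, 61.0, 24.4 and 23.0 CPM in OPE 1 to 4. OPE 2 was above all vehicle libraries and the other 3 were below them, in a narrow band, and the log2 fold change was -0.48 ± 0.28 (adjusted p = 0.515 by edgeR). Perp, a desmosome-associated membrane protein and Trp63 target, measured 33.3, 34.8, 25.4 and 35.7 CPM in vehicle 1 to 4 and 11.3, 37.7, 28.0 and 12.6 CPM in OPE 1 to 4. Here OPE 1 and OPE 4 were below the vehicle range (-0.54 ± 0.33, adjusted p = 0.534 by edgeR). Dsc3 and Dsg2, the desmosomal cadherins, measured 6.55, 5.15, 4.78 and 5.50 CPM and 6.27, 5.61, 3.65 and 5.28 CPM in vehicle 1 to 4, and 2.86, 6.35, 1.46 and 3.33 CPM and 4.38, 6.62, 4.58 and 2.60 CPM in OPE 1 to 4. Dsc3 was lower than any vehicle library in OPE 1, 3 and 4 and Dsg2 in OPE 4, with log2 fold changes of -0.65 ± 0.34 and -0.19 ± 0.27. Cdh1 (chr8:106603351-106670246, plus strand), which encodes E-cadherin of adherens junctions, measured 16.4, 14.7, 15.5 and 18.1 CPM in vehicle 1 to 4 and 12.7, 22.2, 11.5 and 9.86 CPM in OPE 1 to 4, and its log2 fold change was -0.20 ± 0.22 (95% interval -0.69 to 0.28 by edgeR). Epcam (chr17:87635979-87651106, plus strand), an epithelial cell adhesion molecule, was the exception at 24.7, 22.1, 17.6 and 20.02 CPM in vehicle 1 to 4 and 22.2, 26.3, 34.6 and 13.99 CPM in OPE 1 to 4. OPE 2 and OPE 3 were above the vehicle range and OPE 4 below it, with a log2 fold change of 0.20 ± 0.23 (95% interval -0.30 to 0.70 by edgeR).

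Of the differentiation genes, Sfn (14-3-3 sigma, a cell-cycle checkpoint protein of keratinocytes) measured 24.0, 30.9, 28.5 and 29.0 CPM in vehicle 1 to 4 and 28.1, 37.7, 39.7 and 15.7 CPM in OPE 1 to 4. The log2 fold change was 0.11 ± 0.23 (adjusted p = 0.905 by edgeR), with OPE 2 and 3 above the vehicle range and OPE 4 below it. Lor, the main cornified-envelope protein of terminally differentiated keratinocytes, measured 3.89, 3.88, 3.65 and 5.06 CPM in vehicle 1 to 4 and 3.55, 3.18, 4.79 and 3.86 CPM in OPE 1 to 4 and had a log2 fold change of -0.11 ± 0.19 (adjusted p = 0.880 by edgeR). Lor was at a low level in every library, and the groups overlapped. Ivl had 8 reads in the vehicle group and 1 in OPE and was not tested. The other 17 untested genes were keratins, from 1 to 75 reads in all 8 libraries together. Those with most reads were Krt222 (75), Krt20 (71), Krt6b (50), Krt79 (33) and Krt4 (32). Krt12, Krt25, Krt26 and Krt86 had 0 reads in vehicle and 2, 1, 2 and 1 in OPE.

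Promoters of the tested genes were searched in the RefSeq table (GRCm38.p6; 250 bases before to 50 after each start), on both strands, for the grainyhead motif AACNGGTT and the Tfap2 motif GCCNNNGGC, since factors of both families are among the 31 genes. Of the 31 genes 15 had an entry, and 13 of these began within 100 bases of the start in the deposited table. The grainyhead motif was found in 1 of the 13 (Sfn) and in 2.09% of the 32851 promoters in the table. The Tfap2 motif was found in 2 of the 13 (Dsp and Krt18) and in 16.6% of all promoters. The promoters of Krt5, the basal keratin with the lower share, and of Sfn and Krt18, which held a match, are printed 5′ to 3′ on the gene's strand, with matches in capitals. The windows are chr15:101712856-101713155 (minus strand) for Krt5, chr4:133602119-133602418 (minus strand) for Sfn and chr15:102027966-102028265 (plus strand) for Krt18.
Krt5: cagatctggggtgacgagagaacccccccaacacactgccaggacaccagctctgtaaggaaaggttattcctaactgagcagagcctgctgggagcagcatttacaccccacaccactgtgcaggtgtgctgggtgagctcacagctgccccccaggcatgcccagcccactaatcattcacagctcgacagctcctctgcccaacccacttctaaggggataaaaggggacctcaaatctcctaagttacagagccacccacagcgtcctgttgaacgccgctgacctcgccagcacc
Sfn: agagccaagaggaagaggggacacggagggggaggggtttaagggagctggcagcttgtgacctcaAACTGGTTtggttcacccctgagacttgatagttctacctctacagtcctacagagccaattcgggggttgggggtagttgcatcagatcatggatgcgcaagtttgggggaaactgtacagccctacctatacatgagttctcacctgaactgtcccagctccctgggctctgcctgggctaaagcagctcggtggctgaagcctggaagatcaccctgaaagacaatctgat
Krt18: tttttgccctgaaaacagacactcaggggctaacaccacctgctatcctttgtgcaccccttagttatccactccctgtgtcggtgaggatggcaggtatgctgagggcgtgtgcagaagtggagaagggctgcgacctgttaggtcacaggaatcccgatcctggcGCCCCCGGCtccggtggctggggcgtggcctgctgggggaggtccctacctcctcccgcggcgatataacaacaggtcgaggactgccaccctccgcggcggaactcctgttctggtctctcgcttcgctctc
The matches are descriptions of these letters and not sites of binding. Most type I keratin genes lie in a cluster on chromosome 11, and the type II genes lie with the type I gene Krt18 in a cluster on chromosome 15. The 17 keratins of the table on chromosome 11 spanned 99232761 to 100269871, and the 17 on chromosome 15 spanned 101349571 to 102032026 (mm10). Genes with positive and negative fold changes occurred in both clusters: Krt14 and Krt15, for example, both lie on chromosome 11 and had log2 fold changes of 0.33 ± 0.19 and -0.72 ± 0.36.

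Removing single libraries changed how large these differences were. Without OPE 2, none of 33 genes passed (0.0761% of all genes did), and 17 of the 33 had an unadjusted p under 0.05, against 12.7% of all genes. OPE 2 was the highest OPE library for 24 of the 31 genes, and that it differed from OPE 4 was already known. Leaving it out therefore lowers the OPE means of those genes, and the count of 17 is no separate evidence of a difference. The log2 fold change without OPE 2 was -2.73 ± 0.40 for Krt1 (adjusted p = 0.0525), -1.49 ± 0.27 for Krt5 (0.0695) and -0.93 ± 0.14 for Dsp (0.0525) by edgeR. Without both OPE 2 and OPE 4, 1 gene of 34 passed, Krt1 at -2.49 ± 0.45 (adjusted p = 0.0460 by edgeR), where 0.989% of all genes did, and 14 of 34 had an unadjusted p under 0.05 against 17.2%. This pair was picked with the difference between OPE 2 and OPE 4 in these data already known. Without both OPE 1 and OPE 3, a choice made after seeing the data, none of 33 genes passed (0.531% of all genes did) and 1 had an unadjusted p under 0.05, against 10.4% of all genes. The median over the 31 genes lay between -0.59 (without OPE 2) and -0.15 (without OPE 1 and OPE 3). No library was a reason, by its label, to be left out.

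Other genes of epithelia were taken from lists written with earlier results of these data known. Of 35 tested genes of epithelial junctions, regulators and proteases outside the 31, none passed, 25 were below 0 and the median log2 fold change was -0.25. The genes of highest level in this list, the adhesion genes Cdh3 (0.04 ± 0.09) and Jup (0.02 ± 0.11), the protease inhibitor Spint2 (0.23 ± 0.21) and the exchange factor Arhgef5 (0.06 ± 0.17), were close to 0. In 4 genes, named here after their values were seen, the groups did not overlap, all lower in OPE: the desmosomal Dsc2 (-0.81 ± 0.20) and Dsg1a (-1.18 ± 0.43) and the tight-junction genes Ocln (-1.56 ± 0.40) and Tjp3 (-0.89 ± 0.26). Their adjusted p-values by edgeR were 0.105, 0.262, 0.119 and 0.166. Among all genes, 5.44% were lower and 4.05% higher without overlap.

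A list of apical ectodermal ridge and other ectoderm signal genes had 19 tested. Of these, 1 fell, where 0.438% of all genes were called lower. Fgf4, a ridge growth factor that sustains limb outgrowth, measured 1.69, 2.29, 2.01 and 2.89 CPM in vehicle 1 to 4 and 0.646, 0.662, 0.555 and 0.733 CPM in OPE 1 to 4, and all OPE libraries were well below all vehicle libraries. Its log2 fold change was -1.77 ± 0.27 (adjusted p = 0.0264 by edgeR), from only 183 reads in vehicle and 43 in OPE. OPE 2 and OPE 4, far apart for most of the keratins, were at 0.662 and 0.733 CPM for Fgf4, from 10 and 11 reads. So few reads cannot show whether these libraries differed in Fgf4. The other genes of this list did not pass, with 12 of the 19 below 0 and a median of -0.03. RNA from whole buds does not show which cells made these transcripts, so the median is not a measure of the ridge. Besides Fgf4, the groups did not overlap for 2 of them (9.49% of all genes did not overlap), named after their values were seen. Fgf17, another ridge growth factor, was higher in all 4 OPE libraries (0.83 ± 0.26, adjusted p = 0.201 by edgeR), and the homeobox gene Dlx3 was lower (-0.72 ± 0.18, adjusted p = 0.103 by edgeR). The 4 of highest level were the receptor Fgfr2 (0.08 ± 0.09), the ligands Wnt4 (-0.03 ± 0.13) and Jag2 (-0.26 ± 0.13) and the pseudoreceptor Bambi (0.25 ± 0.15). Fgf8, a growth factor of the same list named after its values were seen, had 36 reads in vehicle and 45 in OPE. Its log2 fold change was 0.60 ± 0.42 (adjusted p = 0.598 by edgeR). Sp6 was not analysed here.

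Markers of other cell types were examined beside the ectoderm genes. Of 10 limb mesenchyme genes none passed (median -0.03), and their summed CPM was 8600 to 9398 in vehicle and 7981 to 8553 in OPE, without overlap. Most of this sum came from the collagens Col1a1, Col1a2 and Col3a1 (2646, 2208 and 1788 CPM over all libraries). Taken singly, only 1 of the 10 genes, Col1a1, did not overlap between groups, where 9.49% of all genes did not. The genes of highest level were Col1a1 (-0.28 ± 0.10), Col1a2 (-0.13 ± 0.10), Col3a1 (-0.06 ± 0.10) and Pdgfra (0.04 ± 0.10). Gut epithelium also makes simple keratins. Of 7 tested gut genes, 1 fell, where 0.438% of all genes were called lower. Fabp2, an intestinal fatty-acid carrier, had 2.09, 1.99, 0.749 and 1.73 CPM in vehicle 1 to 4 and 0, 0.132, 0 and 0 CPM in OPE 1 to 4 (131 and 2 reads, adjusted p = 0.0158 by edgeR). The summed CPM of the gut list was 25.5 to 30.2 in vehicle and 25.01 to 31.8 in OPE, and Foxa3 (0.24 ± 0.16), Lgals4 (0.36 ± 0.13), Sox17 (0.05 ± 0.23) and Cdh17 (-1.33 ± 0.30) were its genes of highest level. Most of this sum came from Foxa3 and Lgals4 (10.9 and 7.81 CPM over all libraries). The median log2 fold change of the gut list was -0.84. The groups did not overlap for 4 of the 7 genes, against 9.49% of all genes. Fabp2, Cdh17 and Vil1 were lower and Lgals4 was higher. Vil1, named after its values were seen, had -1.03 ± 0.32 (adjusted p = 0.195 by edgeR). Of 5 tested yolk sac genes, the apolipoproteins Apob (78 and 2 reads, adjusted p = 0.0177) and Apoa1 (-2.22 ± 0.40, adjusted p = 0.0452) fell by edgeR, against the same 0.438% of all genes. The other 3 did not pass: Rbp4 (0.08 ± 0.20), the most abundant, Cubn (-0.34 ± 0.34) and Amn (0.61 ± 0.49). The summed CPM of this list was 13.3 to 15.6 in vehicle and 9.42 to 17.8 in OPE. The part of these markers in the keratin values was not tested.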

How the data were processed

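Messenger RNA was selected with poly-T beads and copied with random primers, per the labels' protocols. Tools listed in the submitters' processing notes are CASAVA 1.8, STAR 2.5, HTSeq 0.6.1 and DESeq2 (as version 2), with build mm10; no source used here gives the annotation release, the strand setting or the treatment of ambiguous reads. Per the file headers, the deposited table holds raw read counts, a normalized signal (the counts over a size factor) and FPKM for every library, and the authors' log2 fold change, p-value and adjusted p-value columns; 3933 genes have no adjusted p-value.

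The deposited counts entered edgeR 4.0.16 (R 4.3.3; TMM, filterByExpr, robust quasi-likelihood fit, two-sided, group as the only term, adjusted over all 15517 genes at 0.05). CPM values were scaled by TMM, with a prior count of 2 for log2 CPM. No replicate differed from another by counting noise alone (lowest chi-square over degrees of freedom 5.11). The biological coefficient of variation was 0.161. On simulated data with 4 and 4 libraries (15332 genes tested), 38.8% of 1.5-fold changes, 67.2% of 2-fold changes and 92.4% of 4-fold changes were called. The changed genes were drawn at random from all genes, each with its own fitted spread. These rates are therefore not rates for the keratins and ectoderm genes.

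Every tested gene of the set was named, with the value in every library where the mean was at least 2 CPM; from other lists, genes past the threshold and up to 4 of highest mean were named. Krt77, given by library, lies below that mean, and other exceptions are marked. Genes, lists and tests were chosen with earlier results of these data known. Alternatives were other scalings, filters and tests (DESeq2 1.42.0), removal of a gene-length trend, a replicate block and left-out libraries. Ratios and shares between genes, and the fit without OPE 1 and OPE 3, were added after seeing the data. The fit without OPE 2 and OPE 4 was planned, with their difference in these data already known. Promoters come from RefSeq (GRCm38.p6) and transcripts from GENCODE vM21. A shared stretch of 1 pair of genes is not reported here. PCR copies of a molecule count as separate reads.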

Additional observations from a re-analysis of the deposited data

Results flagged for a closer look

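In each group of 4 libraries, the highest or lowest library was marked when its gap to the nearest other was above Dixon's 95% critical share of the group's range, for the 31 tested genes, the summed CPM and the 6 keratin ratios of the report. This marked 7 of 76 groups, where chance marks about 1 in 20 independent groups, and OPE 2 stood apart in 4 of the 7. The 76 groups share genes and libraries and are not independent, so the count cannot be read against that rate. OPE 2 was also known beforehand to differ from OPE 4. Dsp was 61.0 CPM in OPE 2, while OPE 1, 3 and 4 had 23.0 to 26.1. Krt6a was 20.8 CPM in OPE 2, the others lying between 2.80 and 5.34. Tfap2c was 3.90 CPM in OPE 2, against 1.33 to 1.66 elsewhere in its group. The FPKM ratio of Krt6a to Krt16 was 2.99 in OPE 2 and 0.687 to 1.05 in OPE 1, 3 and 4. In the vehicle group, Grhl3 was 8.24 CPM in vehicle 1 (others 6.32 to 6.65), Krt19 was 2.19 CPM in vehicle 2 (others 0.577 to 0.847), and the summed CPM was 497 in vehicle 3 (others 593 to 601).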

How the results depend on the processing

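For all genes tested, the count past the threshold was 74 and became 131 with scaling by library totals (117 lower, 14 higher), 136 without a filter on low counts (111 lower, 25 higher), 504 with DESeq2 (336 lower, 168 higher), 321 with the gene-length trend removed (170 lower, 151 higher, against 68 and 6) and 160 without both OPE 2 and OPE 4; the other settings gave 62 to 93, and leaving out single libraries 7 to 308 (8, 7, 19 and 7 without vehicle 1 to 4, and 58, 12, 308 and 178 without OPE 1 to 4). The cause of these shifts was not tested. Among the ectoderm genes the count was 0 under every setting except 1, Krt1, without both OPE 2 and OPE 4. The summed CPM per library moved by less than 1 SD under 2 other scalings. That SD pooled both groups (50.8 in vehicle, 197 in OPE), so it was a wide bound. The place of OPE 3 did change: with scaling by library totals its sum was 481, below the lowest vehicle library (504, vehicle 3). With the replicate number as a block, 62 genes passed and 0 ectoderm genes; same-numbered libraries did not all deviate together (correlations 0.31, 0.08, 0.01 and 0.09; 4 of 8 libraries were closest to their own number), so the numbers were not taken to pair the samples. Of 588 single-gene values over 19 settings, 22 changed sign in 9 genes, all with an adjusted p of at least 0.853. Krt7 became 0.046 with the gene-length trend removed and 0.13 without OPE 1 and OPE 3, which also gave Krt24 0.088, Epcam -0.064 and Sfn -0.076; without OPE 2 and OPE 4, Krt18 became 0.073 and Krt83 -0.028. With 1 library left out, values ranged from -0.30 to 0.11 for Krt7, -0.15 to 0.081 for Krt18, -0.29 to 0.012 for Krt75, -0.072 to 0.83 for Krt19, -0.22 to 0.0054 for Lor, -0.051 to 0.31 for Sfn and -0.016 to 0.38 for Epcam. Krt24 had too few reads for the filter of 10 reads in 4 libraries. Few reads limit the genes under 2 CPM, and shared sequence or an overlapping gene limits Krt6a, Krt16, Krt8, Sfn and Grhl2 among others.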

Other observations

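Other lists that border on the ectoderm gave no call. Of 15 tested genes of the basement membrane and basal-cell adhesion, none passed and 9 were below 0 (median log2 fold change -0.14). Frem2, an extracellular matrix gene of the epithelial basement membrane, measured 74.2, 61.3, 61.9 and 66.6 CPM in vehicle 1 to 4 and 47.2, 48.0, 38.6 and 54.6 CPM in OPE 1 to 4, and Itga6, a hemidesmosome integrin, measured 56.7, 42.5, 42.9 and 42.7 CPM in vehicle 1 to 4 and 35.9, 37.6, 32.9 and 39.5 CPM in OPE 1 to 4; in both, which were singled out after their values were seen, all OPE libraries were below all vehicle libraries. Their adjusted p-values by edgeR were 0.0959 and 0.232, and 5.44% of all genes were lower without overlap. Of the genes of highest level, Plec (-0.15 ± 0.14) and Dst (0.07 ± 0.22) link filaments to hemidesmosomes, and Fras1 (0.25 ± 0.11) works with Frem2.

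Of 6 tested hair placode genes, none passed (median -0.31); Lhx2 (0.03 ± 0.14), Sostdc1 (-0.32 ± 0.15), Eda2r (0.40 ± 0.23) and Wnt10b (-0.30 ± 0.25) were the most abundant, and Edar, the ectodysplasin receptor, did not overlap between groups (-0.83 ± 0.29). Of 3 melanoblast genes none passed (median -0.45), with Mitf (-0.08 ± 0.18), Sox10 (-0.45 ± 0.16) and Pmel (-0.72 ± 0.28), the last without overlap. Edar and Pmel were both lower in OPE, where 5.44% of all genes were lower without overlap. Of 2 Merkel cell genes none passed, Piezo2 (0.10 ± 0.18) and Isl1 (-0.14 ± 0.27), and the 1 tested mesothelium gene, Upk1b, had -0.17 ± 0.48. Values in brackets are log2 fold changes with their standard errors.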
